A study of Caenorhabditis elegans with 12 samples.

Results

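Both TDP-43 strains of the series were pooled into a single group and set against wild type. A pooled value can reflect what the strains have in common or come mainly from a single strain. The 12 members were all 12 libraries of the series, chosen by strain label: 8 transgenic libraries (4 TDP-43 and 4 TDP-43dNLS) against 4 wild type libraries. RNA came from whole Caenorhabditis elegans nematodes labelled larval stage 4, grown at 20 °C. Wild type was wildtype N2. The TDP-43 strain carried Psnb-1::TDP-43 with Pmyo-2::dsRED, and the TDP-43dNLS strain carried Psnb-1::TDP-43(K82A/R83A/K84A) with Pmyo-3::dsRED. The 3 substitutions lie in the nuclear localization signal. The snb-1 promoter drives expression across neurons, while dsRED is a red fluorescent marker, placed in pharyngeal muscle by the myo-2 promoter and in body wall muscle by the myo-3 promoter.

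TDP-43 binds RNA, regulates splicing and RNA stability, and normally works mostly in the nucleus. In amyotrophic lateral sclerosis and related dementias it leaves the nucleus and forms aggregates in the cytoplasm of neurons. Worms have their own ortholog, tdp-1, and neuronal expression of human TDP-43 in worms is known to impair movement.

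Every transgenic library differed from wild type in at least 3 ways at once: a TDP-43 transgene, a dsRED marker and the strain history. These cannot be told apart in a comparison of strains. Whether the libraries within a group stem from separate cultures is not in the labels, and the p-values describe the spread among these libraries, which may be technical. In whole-worm RNA, fewer cells of a type and less RNA per cell cannot be told apart.

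The libraries did not all fit the labelled stage. Total counts ran from 20671982 to 26910097 per library. The first principal component held 69.6% of the variance and set 4 libraries apart from the other 8: TDP-43dNLS replicates 3 and 4 and replicate 4 of both TDP-43 and wild type. The mean level of 23 oocyte and eggshell genes was 1.96 to 3.90 log2 CPM (counts scaled to library size) in those 4 libraries and 8.06 to 9.34 in the other 8, so transcripts of egg-forming adults were abundant in 8 libraries labelled as larvae. A stage term with 2 levels marks the 4 low libraries as larva-like. It was derived from expression and not from a label, and it was part of the comparison as given. The marked level held 2 TDP-43dNLS libraries and 1 each of wild type and TDP-43. The 8 unmarked libraries held 3 wild type, 3 TDP-43 and 2 TDP-43dNLS.

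The constructs were looked for in genes beside the promoters they use. T10H9.10 (WBGene00198169), a non-coding RNA beside snb-1 on chromosome V (6659021 to 6659161, build WBcel235), had 0 counts in each of the 4 wild type libraries. The TDP-43 libraries held 71, 31, 66 and 74 counts of it, and the TDP-43dNLS libraries 34, 28, 177 and 126. Every transgenic library thus stood above every wild type library. Against a floor of 3 counts over the wild type group, its level was at least 93.2-fold higher in the transgenic group, and it rose with an adjusted p of 0.00327. Construct reads that match this stretch cannot be told from reads of the gene itself.

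The other tested genes on a list drawn up for the constructs did not pass. Endogenous snb-1, which encodes synaptobrevin, had a log2 fold change of -0.14 ± 0.12 (SE). The value for tdp-1 was 0.26 ± 0.17. Among the myosins, myo-2 of pharyngeal muscle was at -0.83 ± 0.28 (unadjusted p 0.0104, adjusted p 0.707). The body wall muscle gene myo-3 was at -0.04 ± 0.22, with a sign that changed with the settings. The myosin gene unc-54 of the same muscle was at 0.52 ± 0.27, made of 0.03 in TDP-43 and 0.93 in TDP-43dNLS. The genotype labels do not name unc-54, and whether construct reads were counted in it was not tested. T18D3.14, beside myo-2, had 3, 9, 16 and 10 counts in TDP-43 and 0 in every other library, and it was too low to be tested.

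In the pooled comparison 8 genes of 16637 tested passed an adjusted p of 0.05 (0.0481%), 5 higher (0.0301%) and 3 lower (0.018%). The test was edgeR's quasi-likelihood test with the stage term and Benjamini-Hochberg adjustment over all genes. The higher genes were the pseudogenes Y102A5C.5, Y102A5C.6 and Y102A5C.35, the protein-coding gene C38D9.2, and T10H9.10. The lower genes were pghm-1, an enzyme of neuropeptide amidation, zig-2, a secreted immunoglobulin-domain protein, and Y75B8A.44. Without the stage term 0 genes passed in edgeR, with 222 at an unadjusted p under 0.05. With it, 1032 genes (6.2%) were under that limit, of which 275 were higher (1.65%) and 757 lower (4.55%). With 1 library left out, the number under that limit ran from 603 (without wild type replicate 1) to 2401 (without wild type replicate 3). The split of the calls turned with the settings: limma-voom gave 5 higher and 6 lower, and the average of 3 group means 5 and 7.

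**Figure D1:**
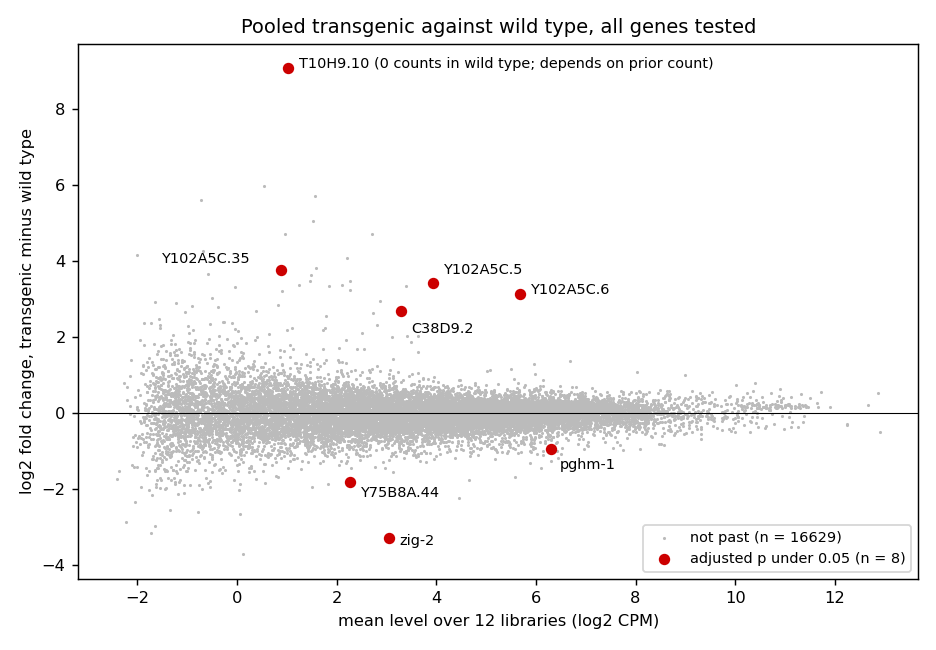
Log2 fold change of the pooled transgenic group minus wild type (y axis) against the mean level over 12 libraries in log2 CPM (x axis), 1 point per gene tested. The 8 genes past the adjusted threshold are red and named: 5 lie above 0 and 3 below, and the position of T10H9.10 depends on the prior count because wild type had 0 counts.

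The higher genes were mostly pseudogenes of a single short stretch of chromosome V. Y102A5C.6 (WBGene00014955, pseudogene, chromosome V, 16929167 to 16930063) was the most abundant of them, at 4.94, 10.9, 13.6 and 3.45 CPM in wild type replicates 1 to 4. In the 8 transgenic libraries it ran from 11.7 through a median of 95.4 to 122 CPM. Its log2 fold change was 3.13 ± 0.35 (adjusted p 0.00327). Over all 12 libraries the groups overlapped, because the gene was low in the marked libraries of every strain. Within the unmarked libraries they did not: wild type reached 13.6 CPM at most and the transgenic libraries started at 93.4. Within the marked libraries wild type stood at 3.45 CPM and the 3 transgenic libraries at 11.7 to 28.7.

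Y102A5C.5 (WBGene00014954, pseudogene, chromosome V, 16928328 to 16928999) lies directly beside it and followed the same course. Its wild type values were 1.71, 2.24, 3.24 and 0.79 CPM, and the transgenic values ran from 2.88 through a median of 25.1 to 42.2. Its log2 fold change was 3.43 ± 0.34, and its adjusted p of 0.00251 was the lowest of all genes. The groups again overlapped over all 12 libraries and stood apart within each level of the stage term. Y102A5C.35 (WBGene00044220, pseudogene, chromosome V, 16924985 to 16926125) was scarcer, at 0.449, 0.163, 0.262 and 0.0359 CPM in wild type and 1.16, 2.70 and 4.30 CPM (lowest, median and highest) in the transgenic libraries. Here every transgenic library stood above every wild type library, and the log2 fold change was 3.77 ± 0.47 (adjusted p 0.00574). That call was lost without wild type replicate 2.

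**Figure D2:**
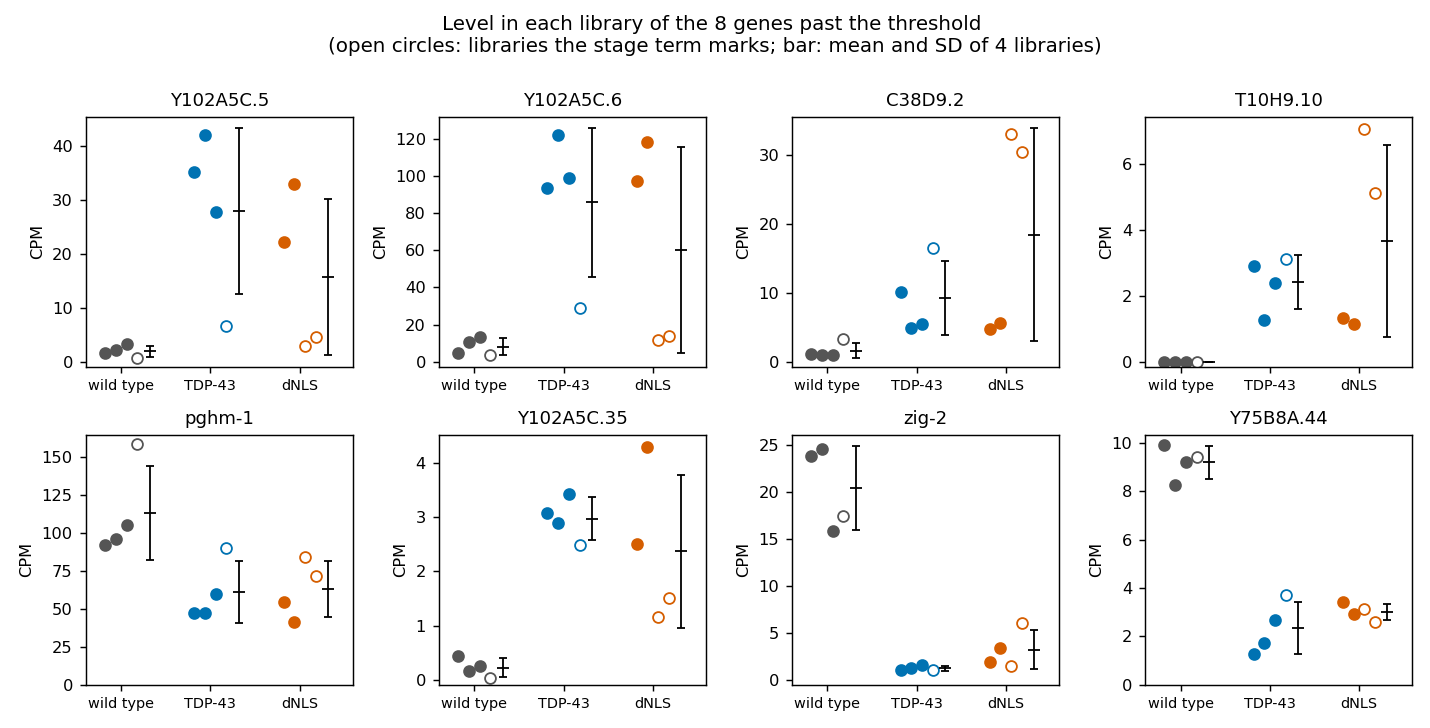
CPM (y axis) of each of the 8 genes past the threshold in the 12 libraries, by group (x axis); open circles are the 4 libraries that the stage term marks, and the black bar gives mean and SD of 4 libraries. For C38D9.2, T10H9.10, Y102A5C.35, pghm-1, zig-2 and Y75B8A.44 no transgenic library lies within the wild type range, while Y102A5C.5 and Y102A5C.6 overlap through the marked libraries.

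The 6 tested genes between 16924985 and 16934596 on chromosome V, a stretch of 9.61 kb, all had positive log2 fold changes, from 2.32 to 5.06. The bounds of this stretch, and its genes not named so far, were chosen after the values were seen. Raised genes set both bounds, so the shared sign does not test clustering. Y102A5C.7, another pseudogene, had the largest (5.06 ± 0.82) and just missed the threshold (adjusted p 0.0554). It had 0 counts in 3 of 4 wild type libraries and 0.575 CPM in wild type replicate 4, against 1.43 to 9.30 CPM in the transgenic ones. Y102A5C.36, annotated as protein coding, was at 2.32 ± 0.42 (adjusted p 0.121), and the pseudogene Y102A5C.43 at 3.32 ± 0.77 (0.367). No other tested gene within 50000 bases of Y102A5C.6 passed, and among the nearest, Y102A5C.4 was at 1.41 ± 0.67 and Y102A5C.8 at 0.16 ± 0.69. How reads that map to several places were counted is not given in the sources used here, and no sequences were compared. The division of counts among these pseudogenes is therefore uncertain.

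**Figure D3:**
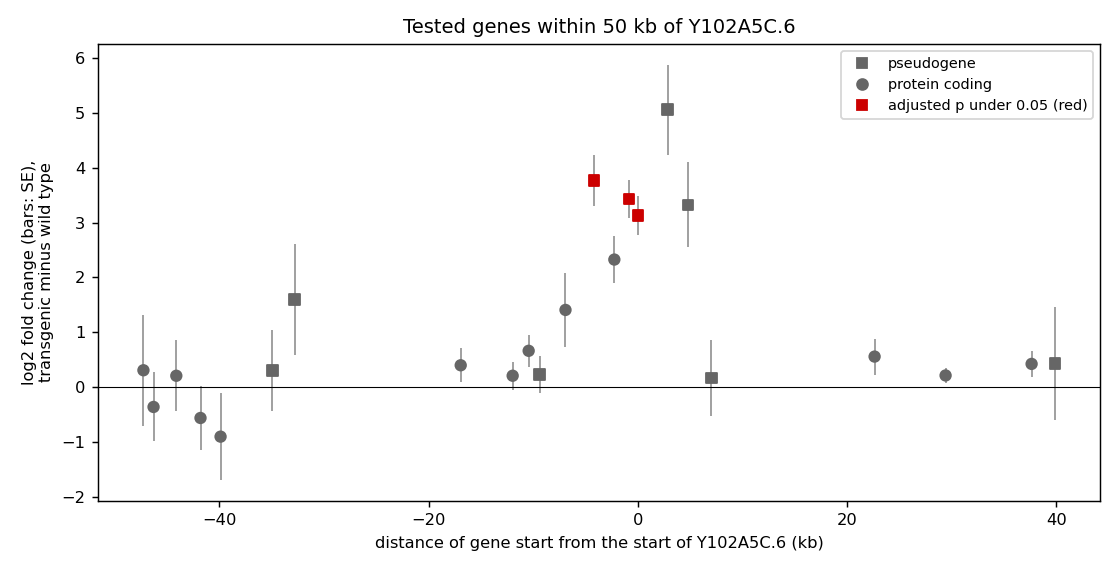
Log2 fold change, transgenic minus wild type, with SE (y axis) of the tested genes around Y102A5C.6 by distance of the gene start in kb (x axis); squares are pseudogenes, circles protein-coding genes and red symbols genes past the adjusted threshold. The 6 genes from Y102A5C.35 to Y102A5C.43 lie at 2.32 to 5.06, and the symbols on either side of them lie nearer to 0.

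C38D9.2 (WBGene00008010, protein coding, chromosome V, 17567150 to 17571742) rose on the same chromosome. Wild type held 1.17, 0.936, 1.05 and 3.30 CPM, and the transgenic libraries ran from 4.70 through a median of 7.84 to 33.2 CPM. Every transgenic library was above every wild type library. The gene was higher in the marked libraries of each strain, opposite to Y102A5C.5 and Y102A5C.6: the marked transgenic libraries held 16.53 to 33.2 CPM and the unmarked 4.70 to 10.1. Its log2 fold change was 2.68 ± 0.31 (adjusted p 0.00327).

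The lower genes included pghm-1 (WBGene00022144, chromosome I, 1808092 to 1811835), which encodes a peptidylglycine alpha-hydroxylating monooxygenase. That enzyme carries out the first step by which neuropeptides receive the amide at their C-terminal end. Wild type libraries held 92.0, 95.8, 105 and 158 CPM. The transgenic libraries ran from 41.5 through a median of 57.3 to 90.01 CPM, each below the lowest wild type library. With a log2 fold change of -0.96 ± 0.12 (adjusted p 0.00561), pghm-1 had the smallest change among the 8 called genes and the highest wild type level. The call was lost without wild type replicate 4 and when only the 8 unmarked libraries were fitted.

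zig-2 (WBGene00006979, chromosome X, 12340377 to 12341438) fell furthest. It belongs to a family of secreted proteins with a pair of immunoglobulin domains, of which zig-3 and zig-4 are known in worms for holding axons in place. Levels were 23.8, 24.5, 15.8 and 17.4 CPM in wild type and 1.01, 1.54 and 6.01 CPM (lowest, median and highest) in the transgenic libraries, with no overlap. The log2 fold change was -3.29 ± 0.44 (adjusted p 0.0117). Its call was lost with 1 library left out in 4 of 12 cases: wild type replicate 2 or 4, or TDP-43 replicate 2 or 3.

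Y75B8A.44 (WBGene00194855, protein coding, chromosome III, 12194490 to 12197026) lies inside osm-12 on the opposite strand. Wild type held 9.89, 8.26, 9.21 and 9.41 CPM, and the transgenic libraries ran from 1.27 through 2.80 to 3.70 CPM, again without overlap. The log2 fold change was -1.83 ± 0.26 (adjusted p 0.0197). The partner osm-12, a cilia gene named only for this overlap, was at -0.18 ± 0.26 and did not pass. The strand setting of the counting is not given in the sources used here, so reads of the pair could have been counted in either gene. The call was lost without any 1 of 6 libraries: a wild type replicate (any of 4) or TDP-43 replicate 2 or 3. It was also lost in the 8 unmarked libraries alone (adjusted p 0.163).

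Just outside the threshold, and named after their values were seen, stood T04A6.1, C46G7.5 and nhr-3. T04A6.1 (chromosome III) was at 33.98 ± 7.37 CPM in 4 wild type and 16.97 ± 3.24 in 8 transgenic libraries (SD), giving a log2 fold change of -0.94 ± 0.15 (adjusted p 0.0554). C46G7.5 followed at -1.96 ± 0.35 (adjusted p 0.106). The nuclear hormone receptor gene nhr-3 was at 1.15 ± 0.21 (0.121), with 26.4 to 103 CPM in the transgenic libraries against 12.33 to 41.0 in wild type. Its groups overlapped over all libraries through wild type replicate 4, and not within either level of the stage term.

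Each strain was also set beside the pooled value, in a fit with 3 group means and the stage term. The strains share the wild type libraries, so their values are not independent of each other. On its own, TDP-43 had 16 genes past the threshold (0.0962%) and TDP-43dNLS 9 (0.0541%). For Y102A5C.6 the log2 fold change was 3.32 ± 0.37 in TDP-43 and 2.91 ± 0.36 in TDP-43dNLS. For C38D9.2 it was 2.63 ± 0.34 and 2.75 ± 0.35, and for pghm-1 -0.90 ± 0.14 and -1.03 ± 0.15. zig-2 differed more, at -4.05 ± 0.44 in TDP-43 and -2.68 ± 0.43 in TDP-43dNLS. In TDP-43dNLS on its own, zig-2 (adjusted p 0.0694) and Y75B8A.44 (0.145) did not pass; all 8 genes passed in TDP-43. In TDP-43 on its own flp-1 (-1.89 ± 0.25, adjusted p 0.0110), nlp-49 (-1.67 ± 0.21, 0.0100), unc-25 (-1.37 ± 0.18, 0.0110) and ttr-39 (-2.01 ± 0.24, 0.00687) also fell, with values in TDP-43dNLS of -1.09, -0.94, -0.71 and -0.74, none past. A test of their strain difference did not pass either (adjusted p 0.271 to 0.747). With the average of 3 group means these 4 passed the pooled comparison as well (adjusted p 0.0147 to 0.0227). DESeq2's Wald test called flp-1, nlp-49 and unc-25, and not ttr-39 (adjusted p 0.117).

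**Figure D4:**
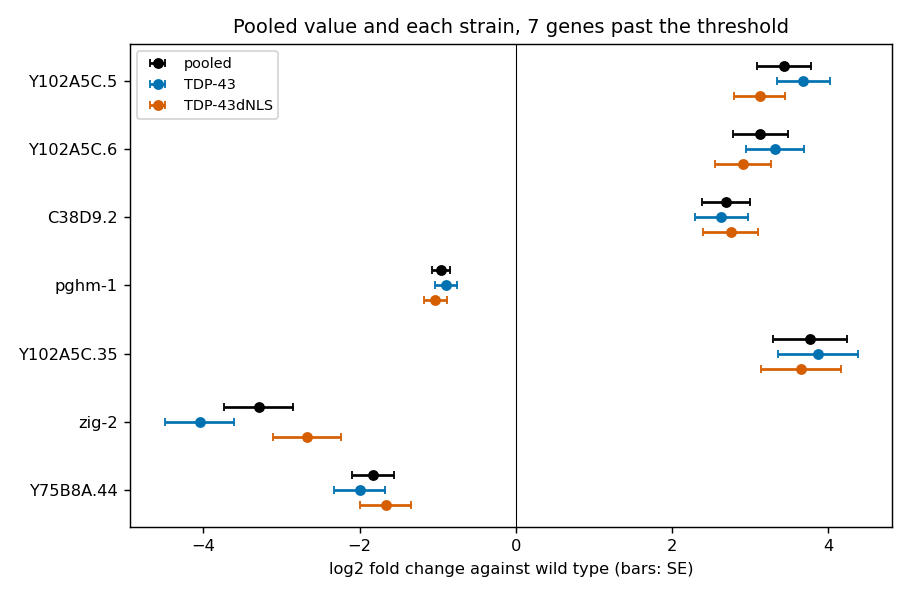
Log2 fold change against wild type with SE (x axis) for 7 genes past the threshold (y axis), pooled and for each strain; T10H9.10 is not drawn because wild type had 0 counts. Both strains lie on the same side of 0 for each gene, and the widest distance between them is that of zig-2 (-4.05 and -2.68).

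The difference between the strains was tested directly, without wild type as a shared reference. For zig-2 it was 1.37 ± 0.43 (TDP-43dNLS minus TDP-43), with an unadjusted p of 0.00799 and an adjusted p of 0.78, so it did not pass. The other 7 called genes had differences between -0.56 ± 0.30 (Y102A5C.5) and 0.33 ± 0.32 (Y75B8A.44), none past. Over all genes 1 of 16637 (0.00601%) passed: C30G12.1, named after its values were seen. It was at 2.28 ± 0.35 in TDP-43 and -0.81 ± 0.36 in TDP-43dNLS, and its pooled value was 1.42 ± 0.80. Pooling also joined unlike values of unc-54 (unadjusted p of the strain difference 0.000304, adjusted p 0.347). The glutamate decarboxylase gene unc-25 was likewise at -1.37 in TDP-43 and -0.71 in TDP-43dNLS (unadjusted p of the difference 0.00376, not past when adjusted). Over all genes 733 (4.41%) were under an unadjusted p of 0.05 in this test.

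Whether the transgenic difference changed with the stage level was tested as an interaction. In edgeR 0 genes passed and 188 (1.13%) were under an unadjusted p of 0.05, while DESeq2's Wald test called 1. Among the called genes the unadjusted interaction p was lowest for Y102A5C.5 (-1.17 ± 0.62 log2, p 0.086). The marked level has 1 wild type library, which the fit assumes to vary like the others.

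A count that needs no model of group and stage is the number of genes whose transgenic libraries lay all above or all below the wild type range. There were 38 (0.228%), 12 higher (0.0721%) and 26 lower (0.156%). Of the 12 higher genes 7 were pseudogenes, a class with 645 of the 16637 tested genes, and 7 lay on chromosome V, which held 3471. Of the 26 lower genes 24 were protein coding, as were 15810 of all tested. Among these, named here after their values were seen, were gpa-5, a G protein alpha subunit of chemosensory neurons, at 1.16 ± 0.123 CPM in wild type and 0.481 ± 0.376 in the transgenic group (SD, n = 4 and 8), and rgs-3, a regulator of G protein signalling, at 10.9 ± 1.06 and 7.48 ± 0.956 CPM. Neither passed the adjusted test (0.752 and 0.683). When libraries were compared only within the unmarked and within the marked level, 69 genes (0.415%) were higher and 193 (1.16%) lower without overlap.

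Gene lists by function were described by counts and medians. Over all genes tested, 47.2% of log2 fold changes were negative and 52.8% positive, and the median was 0.03. At an unadjusted p under 0.05, 4.55% of all genes were lower and 1.65% higher. These are the shares to set beside the counts of each list that follows. Among neuropeptide genes of the FMRFamide-like family, 29 of 30 tested members were negative (median -0.31). Of these, 9 were lower at an unadjusted p under 0.05 (against 4.55% over all genes) and 0 passed over all genes. The largest difference was that of flp-1, made chiefly in the AVK interneurons, with 109, 92.7, 70.2 and 167 CPM in wild type and 17.03 to 91.3 CPM (median 46.4) in the transgenic libraries. It had a log2 fold change of -1.44 ± 0.27 (adjusted p 0.142) and overlapping groups. flp-33 was at -1.04 ± 0.20 (0.142) and did not overlap: 25.5 to 30.6 CPM in wild type and 7.33 to 18.3 in the transgenic group.

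In the nlp family of neuropeptide-like proteins 44 of 57 members were negative (median -0.24), with 11 lower and 1 higher at the unadjusted limit. nlp-49 was at -1.27 ± 0.24 (adjusted p 0.142), with 73.9 to 187 CPM in wild type and 22.2 to 97.7 in the transgenic libraries, which overlap. nlp-5 was at -0.91 ± 0.28 (adjusted p 0.643), with no overlap (2.98 to 5.65 against 1.53 to 2.938 CPM). Insulin-like peptides were negative for 21 of 28 (median -0.15), with 2 lower unadjusted (7.14%, near the 4.55% of all genes). Of the genes that process peptides and run dense core vesicles, 13 of 15 were negative (median -0.23) and 1, pghm-1, passed over all genes. The proprotein convertase gene kpc-1 was at -0.50 ± 0.18 (adjusted p 0.717). Fitted without the stage term, the medians were -0.23 for FMRFamide-like, -0.13 for nlp, -0.13 for insulin-like and -0.068 for peptide processing genes.

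Genes of small transmitters lay on the same side. All 10 GABA genes were negative (median -0.48), 5 of them at an unadjusted p under 0.05. unc-25, which makes GABA, had 70.3, 63.5, 72.7 and 128 CPM in wild type and 21.5 to 99.2 CPM (median 39.5) in the transgenic libraries, with a log2 fold change of -1.03 ± 0.21 (adjusted p 0.206). unc-47, the vesicular GABA transporter, was at -0.998 ± 0.276 (0.522). Within the unmarked libraries the mean level of the 10 genes was 3.84 to 4.20 log2 CPM in wild type and 2.95 to 3.49 in the transgenic group, without overlap. In the marked ones wild type stood at 5.22 and the transgenic libraries at 4.55 to 5.23, so there the ranges met. Without the stage term the GABA median was -0.18.

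For acetylcholine, all 7 genes of synthesis, transport and breakdown were negative (median -0.33, 2 lower unadjusted), led by the acetylcholinesterase gene ace-1 (-0.79 ± 0.21) and the choline transporter gene cho-1 (-0.56 ± 0.21). Glutamate genes were negative for 16 of 17 (median -0.31, 3 lower unadjusted), among them the receptor gene glr-4 (-0.50 ± 0.15) and the vesicular transporter gene eat-4 (-0.51 ± 0.22). Monoamine genes were negative for 7 of 10 (median -0.17, 0 unadjusted), with the tryptophan hydroxylase gene tph-1 at -0.73 ± 0.40. None of these genes passed over all genes. Without the stage term the medians were -0.16 for acetylcholine and -0.14 for glutamate genes, and the monoamine median was -0.028 without wild type replicate 1.

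Synaptic vesicle release genes were negative for 22 of 25 (median -0.21), 5 of them at the unadjusted limit, including the SNARE gene ric-4 (-0.38 ± 0.13) and the vesicle motor gene unc-104 (-0.45 ± 0.16). Pan-neuronal genes were negative for 8 of 12 (median -0.24, 1 lower unadjusted). Their mean level was 5.28 to 5.49 log2 CPM in the unmarked wild type libraries and 5.02 to 5.27 in the unmarked transgenic ones, and in the marked libraries it was 5.96 against 5.81 to 6.10. Without the stage term the medians of both lists came close to 0, at -0.035 for vesicle release and -0.017 for pan-neuronal genes. How far the lower values of transmitter and peptide genes share in this was not tested. Genes of touch receptor neurons did not lie lower: 6 of 14 were negative (median 0.02) with 0 at the unadjusted limit, and the sign of that median changed in 7 of 23 alternatives. Cilia genes were negative for 19 of 26 (median -0.16, 1 lower unadjusted). All 12 zig genes were negative (median -0.27), of which zig-2 passed. Without the stage term these medians were -0.0019 and -0.067.

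**Figure D5:**
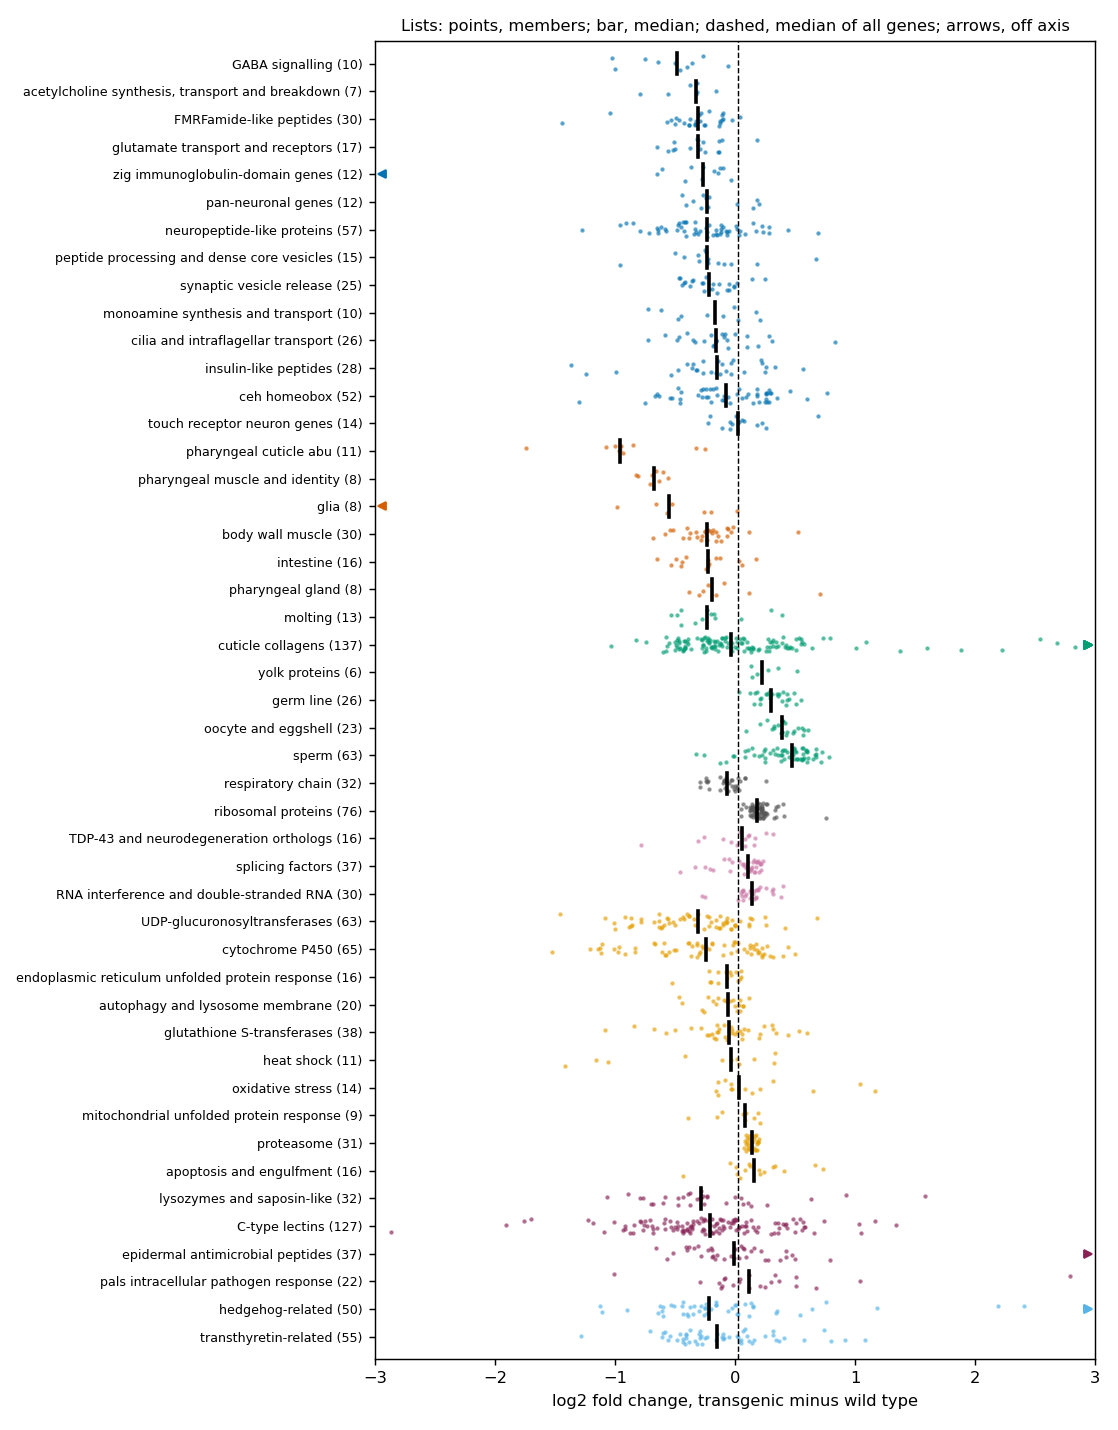
Log2 fold change, transgenic minus wild type (x axis), of the tested members of 47 gene lists (y axis, number tested in brackets): points are members, black bars medians, the dashed line the median of all genes (0.03), and arrows the 12 members beyond 3 in either direction. Lists of one colour share a role, from neurons at the top to secreted proteins at the bottom; GABA genes have the lowest neuronal median (-0.48), and pharyngeal abu and pharyngeal muscle genes lie lower still (-0.96 and -0.67).

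Lists of other cells also lay away from the median of all genes. Pharyngeal muscle and identity genes were negative for 8 of 8 (median -0.67), 7 of them at an unadjusted p under 0.05 (87.5%, against 4.55% over all genes) and 0 past over all genes. The troponin gene tni-4 was at -0.66 ± 0.20 and the pharyngeal myosin gene myo-1 at -0.81 ± 0.26. The abu genes, which encode cuticle proteins of the pharynx, were negative for 11 of 11 (median -0.96, 5 lower unadjusted), with abu-11 at -1.08 ± 0.44. Their mean level was 3.79 (wild type replicate 3) to 6.53 log2 CPM in unmarked wild type libraries. It was 3.55 to 5.28 in unmarked transgenic libraries, so the groups overlapped. Glial genes were negative for 7 of 8 (median -0.55, 3 lower unadjusted). Their median was -0.31 without the stage term and -0.35 in the unmarked libraries alone. The transcription factor gene vab-3 was at -0.99 ± 0.21 (adjusted p 0.265). Body wall muscle genes were negative for 28 of 30 (median -0.23, 5 lower unadjusted). That median came mostly from 1 strain, at 0.03 in TDP-43 and -0.55 in TDP-43dNLS. Intestine genes were negative for 13 of 16 (median -0.23, 0 unadjusted), but that median was -0.0071 without wild type replicate 1 and -0.43 without wild type replicate 3. The mean level of the 8 pharyngeal muscle genes was 5.68 to 6.51 log2 CPM in unmarked wild type and 4.77 to 6.12 in unmarked transgenic libraries, and 7.35 against 6.56 to 7.02 in the marked ones. What part such cells had in the neuronal values was not tested.

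Genes of the germ line, oocytes, sperm and general growth lay on the other side. All 26 germ line genes were positive (median 0.30), 3 of them at an unadjusted p under 0.05, as were all 23 oocyte and eggshell genes (median 0.39, 0 unadjusted), although that median was -0.02 without the stage term. Sperm genes were positive for 57 of 63 (median 0.47, 0 unadjusted), with a median of 0.035 without the stage term and 0.16 without wild type replicate 4. The germ line median was 0.15 without the stage term or without wild type replicate 1. These lists also follow the stage split, and their levels overlapped between the groups: oocyte and eggshell genes stood at 8.06 to 9.33 log2 CPM in unmarked wild type and 8.64 to 9.34 in unmarked transgenic libraries. All 76 ribosomal protein genes were positive (median 0.19, 2 higher unadjusted), and so were all 31 proteasome genes (median 0.14, 0 unadjusted). The proteasome median was 0.015 without wild type replicate 1 and 0.31 without wild type replicate 3, and the ribosomal median 0.13 and 0.28. None of these passed over all genes.

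Genes close to the biology of TDP-43 showed small differences. A list of worm orthologs of TDP-43 and other neurodegeneration genes had a median of 0.06 (11 of 16 positive). The list also held the claudin-like gene hpo-30, not such an ortholog, at -0.78 ± 0.27. Splicing factor genes were positive for 28 of 37 (median 0.11), with sup-12, a muscle splicing regulator, at -0.46 ± 0.17. The median of both lists turned negative without wild type replicate 1 (-0.03 and -0.01). Genes of RNA interference and double-stranded RNA were positive for 28 of 30 (median 0.14). Apoptosis and engulfment genes were positive for 14 of 16 (median 0.16), with psr-1, an engulfment receptor, at 0.33 ± 0.12. Without wild type replicate 1 these last 2 medians were 0.023 and 0.061, and without wild type replicate 3 they were 0.25 and 0.26. None passed over all genes.

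No member of the stress response lists passed over all genes. Heat shock genes had a median of -0.03 with 5 members positive and 6 negative, from -1.42 to 0.33, genes of the unfolded protein response had medians of -0.07 in the endoplasmic reticulum and 0.08 in mitochondria, oxidative stress genes 0.03 and glutathione S-transferases -0.05. Each of these 5 medians changed sign in at least 1 alternative. Among enzymes that modify lipids and foreign compounds, UDP-glucuronosyltransferase genes were negative for 54 of 63 (median -0.31) with 12 lower unadjusted, and cytochrome P450 genes for 42 of 65 (median -0.24) with 8 lower unadjusted, where 4.55% of all genes were lower. Without wild type replicate 1 the medians were -0.12 and -0.15, and without the stage term -0.18 and -0.073. ugt-37 was at -0.92 ± 0.27 without overlap (3.88 to 4.08 CPM in wild type, 1.23 to 2.82 in the transgenic group), and cyp-35A5 at -0.84 ± 0.25, likewise without overlap (6.10 to 9.39 against 2.55 to 5.93 CPM). Neither passed over all genes (adjusted p 0.582 and 0.632).

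Defence and secreted families were mixed. C-type lectin genes were negative for 87 of 127 (median -0.21, 8 lower and 1 higher unadjusted), lysozyme and saposin-like genes for 24 of 32 (median -0.29, 2 lower), and transthyretin-related genes for 33 of 55 (median -0.15, 7 lower). The lower members were 6.3%, 6.25% and 12.7% of these lists, against 4.55% over all genes, so the first 2 shares lay near that of all genes. Without wild type replicate 1 the lectin median was -0.042 and the lysozyme and saposin-like median -0.058. ttr-39 was at -1.29 ± 0.34 (adjusted p 0.479) without overlap (18.9 to 25.7 CPM in wild type, 4.095 to 18.1 in the transgenic group); its values were -2.01 in TDP-43 and -0.74 in TDP-43dNLS. Cuticle collagens were split, 66 positive and 71 negative (median -0.04, which changed sign in 8 of 23 alternatives), with 6 higher unadjusted. col-51, 1 of the 6, was at 0 to 0.135 CPM in wild type and 0.0421 to 10.1 in the transgenic libraries, with overlap. Hedgehog-related genes were negative for 32 of 50 (median -0.22, which was 0.22 without the stage term).

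The remaining lists lay near the median of all genes or rested on few members. Yolk protein genes were positive for 6 of 6 (median 0.23, which changed sign in 5 of 23 alternatives). Respiratory chain genes had a median of -0.07, autophagy and lysosome membrane genes -0.06, ceh homeobox genes -0.07 and pharyngeal gland genes -0.19. Molting genes had a median of -0.24, made of 0.10 in TDP-43 and -0.71 in TDP-43dNLS. That median was 0.42 without the stage term and 0.43 without wild type replicate 1, and its sign changed in 4 of 23 alternatives. Epidermal antimicrobial peptide genes were at -0.01 and pals genes of the intracellular pathogen response at 0.12, also made of unlike strains (-0.16 and 0.45). The epidermal median changed sign in 10 of 23 alternatives and the pals median in 2. No member of these lists passed over all genes.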

How the data were processed

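RNA of 12 whole-worm libraries was sequenced after TRIzol extraction and poly-A selection, per the labels' protocols. The authors deposited raw counts per gene, with WBcel235, STAR, R 4.4.2 and featureCounts 2.20.0 named as build and tools, per the submitters' processing notes. Not given in the sources used here were the annotation release, the strand setting and the handling of multi-mapping reads. All 46926 identifiers were found in the Ensembl annotation of WBcel235.

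Of these genes, 16637 were kept by filterByExpr (minimum count 10), holding 99.9% of counts. CPM used library sizes scaled by the trimmed mean of M-values. edgeR 4.0.16 in R 4.3.3 fitted a quasi-likelihood model of group and stage level with robust dispersions and Benjamini-Hochberg adjustment, after the scripts were tested on simulated data. The genes named were those past the threshold, the construct genes and, per list, at most 2 genes of lowest unadjusted p; exceptions are said in the text. The members, the lists and the stage term were chosen with earlier results of these data known. Replicates of each group differed by more than counting noise, so no library was merged. Alternatives covered scaling, filters, tools (DESeq2 1.42.0, limma 3.58.1), the stage term, a replicate block and left-out libraries. No sequence was used here.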

Additional observations from a re-analysis of the deposited data

Results flagged for a closer look

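C38D9.2 had 3.3 CPM in wild type replicate 4, far from the other 3 wild type libraries, which held 0.936 to 1.17 CPM. That library is 1 of the 4 that the stage term marks, and the gene was also higher in the marked transgenic libraries (16.53 to 33.2 CPM). It was the only value to stand out so among 29 groups of libraries examined, and chance would single out about 1 group in 20.

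C30G12.1 (protein coding, chromosome II, 7299342 to 7301633, WBcel235) differed between the strains, at a log2 difference of -3.09 ± 0.38 (TDP-43dNLS minus TDP-43, edgeR adjusted p 0.0415). Against the same wild type libraries it stood at 2.28 in TDP-43 and -0.81 in TDP-43dNLS, and the pooled value of 1.42 ± 0.80 did not pass (adjusted p 0.82).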

How the results depend on the processing

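The count of 8 called genes (5 higher, 3 lower) stayed within 1.5 times under most settings. DESeq2's Wald test called 55 (30 higher, 25 lower), and without the stage term 0 passed in either direction. No filter on low counts gave 8 higher, and at least 10 CPM in 4 libraries gave 3 higher. The lower calls were 6 with limma-voom, 5 with the oocyte level as covariate, 1 in the 8 unmarked libraries and 7 with the average of 3 group means. With 1 library left out the counts ran from 5 to 9, with 4 to 7 higher and 0 to 4 lower: 5 in all without wild type replicate 2, and 0 lower without wild type replicate 4. The strain difference called 26 genes with the Wald test and 0 without the stage term, against 1, and the interaction 1 with the Wald test, against 0. The causes were not tested.

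Whether replicate numbers pair the libraries is not in the labels. After group and stage level were taken out, residuals of 12 same-numbered pairs correlated at -0.47 to 0.302, and 4 pairs exceeded 0.1. With only group taken out, the range was -0.629 to 0.825, and the stage term marks replicate 4 of every group. With a replicate block 9 genes passed (7 higher, 2 lower), 6 of them among the 8; zig-2 (adjusted p 0.0635) and Y75B8A.44 (0.0683) were lost.

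Signs turned for 4 named genes, none past the threshold. myo-3 became 0.0097 with DESeq2 size factors and the Wald test, 0.14 without the stage term, 0.056 with the oocyte covariate, and -0.19 to 0.18 with 1 library left out. T04H1.1 became 0.011 with size factors, 0.0091 with the Wald test, 0.17 with voom, 0.40 without the stage term, 0.16 with the covariate, 0.035 with the block, and -0.35 to 0.50 with 1 library left out. vit-1 became -0.22 without the stage term and -0.010 with the covariate. vit-3 became -0.33 without the stage term, -0.062 in unmarked libraries, and -0.071 (without wild type replicate 4) to 1.17 with 1 library left out. The medians of 31 of 47 lists kept their sign in all 23 alternatives. Some medians moved by over 1.5 times, for example without the stage term or without wild type replicate 1, 3 or 4.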

Other observations

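Some of the higher genes lay near each other. Between Y102A5C.35 and C38D9.2 on chromosome V (16924985 to 17571742, WBcel235), a stretch of 647 kb whose bounds were chosen after the values were seen, 55 genes were tested. It held 4 of the 8 called genes and 6 of the 12 genes that were higher without overlap. Called genes set both bounds, so these counts and the share that follows were raised by that choice and do not test clustering. At an unadjusted p under 0.05, 16 of the 55 were higher (29.1%, against 1.65% over all genes) and 0 were lower. The 6 tested genes of the 9.61 kb stretch described above are among the 16.

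By gene class, 41 of 645 pseudogenes were higher at that limit (6.36%), against 1.65% over all genes. By chromosome, 183 of 2405 genes on X were lower (7.61%), against 4.55%. These shares were not tested, since neighbouring and related genes are not independent.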
